A study of Homo sapiens with 6 samples.

Results

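HOX cluster genes were examined in K562 cells, a human line from a chronic myelogenous leukaemia, before, during and after exposure to the anthracycline doxorubicin. Members were the protein-coding genes named HOXA, HOXB, HOXC or HOXD with a number and present in both deposited count tables. The rule gave 36 of the 30341 genes that both tables hold: 8 HOXA, 10 HOXB, 9 HOXC and 9 HOXD genes. HOXA4, HOXA7 and HOXA9 appear in the 48 h table only, as missing values, and fell outside the rule.

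HOX proteins are homeodomain transcription factors encoded in 4 clusters, HOXA on chromosome 7, HOXB on chromosome 17, HOXC on chromosome 12 and HOXD on chromosome 2. The order of the genes along a cluster parallels the order in which they are used along the body axis, and genes with the same number in different clusters are paralogs. HOX proteins bind DNA together with cofactors of the TALE homeodomain class, the PBX and MEIS proteins. In blood they act in stem and progenitor cells and are switched down as cells mature. KMT2A (MLL) complexes keep HOX genes active and Polycomb complexes keep them silent, and raised HOXA genes with MEIS1 are a known feature of some acute leukaemias.

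The study asked which transcriptional state accompanies tolerance of doxorubicin, a drug that poisons topoisomerase II on DNA. The parental sample was untreated wild-type K562 and gave 2 libraries, Parental 1 in the table of the clones and Parental 2 in the 48 h table. A second sample, 1 library, was parental K562 kept in 225 ng/ml doxorubicin for 48 h. Anthracycline-tolerant clones ATC1 to ATC4 came from 480 wells of 10000 cells each, given 100 ng/ml doxorubicin for 3 days and then 225 ng/ml. After 4 weeks 21 wells held living cells, and 4 of these could be kept growing at 225 ng/ml. Each clone is a separately selected culture with 1 library, all are K562 cells, and the clones were under drug when sampled, so selection and the presence of drug cannot be told apart. The labels do not say whether the 2 parental libraries came from separate cultures.

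The clusters also encode microRNAs of the miR-10 and miR-196 families, which are textbook regulators of HOX messages. Their sequences are shown because they tie the clusters together, and the capitals mark the seed, bases 2 to 8. They were taken from RefSeq (GRCh38.p14). The miR-196 genes of 3 clusters share 1 seed, and the miR-10a gene lies within the exons of HOXB4.
hsa-miR-10a-5p, chr17:48579904-48579926, minus strand: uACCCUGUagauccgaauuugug
hsa-miR-196a-5p, MIR196A1, chr17:48632532-48632553, minus strand, and MIR196A2, chr12:53991762-53991783, plus strand: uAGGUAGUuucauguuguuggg
hsa-miR-196b-5p, chr7:27169528-27169549, minus strand: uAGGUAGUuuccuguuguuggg
The messages of HOXB8 carry a stretch in the 3′ UTR that faces miR-196a along its whole length. Of 22 positions 21 form Watson-Crick pairs and 1 a G:U pair, which falls in the seed, so no seed match is capitalised.
HOXB8 3′ UTR, chr17:48612770-48612791, minus strand: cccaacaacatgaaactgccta
The complement of the miR-196 seed, ACTACCT, occurs in the 3′ UTRs of 7 of the 36 members, among them HOXB6, HOXB7 and HOXC8, and in 7.9% of 19133 genes. The complement of the miR-10a seed, ACAGGGT, occurs in 3 of the 36, HOXB3 among them, and in 13.7% of genes. The microRNAs have no value in these data, and a match is a description of letters only.

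Promoter sequences, 250 bases before to 50 after a start site in RefSeq, were matched for 17 members. They are shown for HOXC4 with HOXC5, whose windows are the same stretch of DNA, and for HOXD4, which lay above both parental libraries in all 4 clones. Searched on both strands were TGATNNAT (a PBX-HOX motif, present in 7.4% of 35116 promoters), TGACAG (MEIS, 15.8%) and TATAAA (a core promoter box, 11.5%), and matches are in capitals. No match was found in the HOXC4 and HOXC5 window, which holds 15 CpG, and 1 TGACAG in that of HOXD4, which holds 4 CpG. The median over all promoters was 14 CpG.
HOXC4 and HOXC5, chr12:54016638-54016937, plus strand: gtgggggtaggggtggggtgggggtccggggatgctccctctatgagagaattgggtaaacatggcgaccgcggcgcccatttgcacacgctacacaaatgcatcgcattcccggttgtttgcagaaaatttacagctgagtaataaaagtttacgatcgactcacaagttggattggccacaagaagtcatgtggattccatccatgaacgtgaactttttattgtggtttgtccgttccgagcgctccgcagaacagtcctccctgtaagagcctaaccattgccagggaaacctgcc
HOXD4, chr2:176151300-176151599, plus strand: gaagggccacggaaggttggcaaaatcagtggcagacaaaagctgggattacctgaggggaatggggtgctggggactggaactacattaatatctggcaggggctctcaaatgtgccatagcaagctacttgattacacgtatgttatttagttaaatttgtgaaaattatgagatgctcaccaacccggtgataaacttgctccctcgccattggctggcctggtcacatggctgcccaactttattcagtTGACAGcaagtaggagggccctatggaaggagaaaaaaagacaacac

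The libraries held 12537146 to 21361758 counts, and 4.25% to 9.63% of them came from mitochondrially encoded genes. All 9 of the erythroleukaemia markers (globins, GATA1 and others) had counts in every library. Of the other cells' markers, the 5 fibroblast genes summed to 16.7 to 65.1 CPM (counts relative to library size, here and below scaled by TMM over the 7 libraries together) in the clones and 24.9 CPM at 48 h, against 2.62 CPM in Parental 1 and 1.50 CPM in Parental 2, where 1 gene of the 5 was at 0. The 5 lymphoid genes summed to 9.60 to 33.1 CPM in all libraries, with MS4A1 at 0 or 1 count. The epithelial sum was 24.9 to 58.6 CPM, with KRT5 at 0 to 3 counts. EPCAM made up most of it, and CDH1, at 1 to 7 counts in the other libraries, had 128 counts (8.41 CPM) at 48 h. The part of these markers in the values below was not tested. The p-values below measure only the spread between these cultures.

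K562 cells had mainly HOXB messages, and HOXB9 alone made up more than all other HOX genes together in every library but the 48 h one. In Parental 1 the 10 HOXB genes took 94.7% of the 7951 HOX counts (exact 95% binomial interval 94.2 to 95.2), the 9 HOXC genes 5.17% (4.69 to 5.68) and the HOXD genes 0.0755%. These intervals cover counting error only. HOXA genes had 4 counts there, and no HOXA member exceeded 4 counts in any library. Thus 15 members had at least 100 counts over the 7 libraries, 8 of HOXB (HOXB2 to HOXB9) and 7 of HOXC, and these are given with every value.

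HOXB9 (ENSG00000170689, GRCh38 chromosome 17, 48621159 to 48626356, minus strand), at the posterior side of the HOXB run, measured 239 CPM in Parental 1, 372 in Parental 2, 205, 312, 313 and 273 in ATC1 to ATC4 and 166 at 48 h. The 48 h library was the lowest of the 7, and the clones lay between it and Parental 2. HOXB4 (ENSG00000182742, 48575513 to 48580111), a gene known for expanding blood stem cells when forced on, measured 65.0 and 62.3 CPM in the parental libraries, 42.2, 42.0, 43.7 and 58.0 in the clones and 52.8 at 48 h. All 4 clones were below both parental libraries, ATC4 the least so. HOXB3 (ENSG00000120093, 48548870 to 48604912), a gene whose long transcripts span its neighbours, measured 52.4 and 54.4 CPM in the parental libraries, 42.4, 47.4, 40.7 and 75.0 in the clones and 43.9 at 48 h. ATC4 was above and the other clones below the parental values.

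HOXB8 (ENSG00000120068, 48611377 to 48614939), which can block myeloid maturation when forced on, measured 21.4 and 30.8 CPM in the parental libraries, 19.3, 35.7, 28.7 and 31.0 in the clones and 12.1 at 48 h. Its 48 h value was the lowest of all, as for HOXB9, while the clones overlapped the parental libraries. HOXB2 (ENSG00000173917, 48540894 to 48544989), an anterior gene of the cluster, measured 11.4 and 16.6 CPM in the parental libraries, 8.07, 12.7, 10.4 and 10.4 in the clones and 8.47 at 48 h. ATC1 and the 48 h library were the lowest. HOXB6 (ENSG00000108511, 48595751 to 48604992), described in erythroid cells, measured 7.74 and 9.40 CPM in the parental libraries, 6.86, 12.5, 12.2 and 10.2 in the clones and 25.0 at 48 h. HOXB5 (ENSG00000120075, 48591257 to 48593961), its neighbour, measured 1.39 and 2.16 CPM, then 1.39, 2.22, 3.39 and 2.34 in the clones and 5.98 at 48 h. In both genes the 48 h library stood above all others. HOXB7 measured 4.17 and 6.24 CPM in the parental libraries, 3.27, 5.35, 8.16 and 4.48 in the clones and 5.32 at 48 h, inside the range of the other libraries. The position found for it, 48607227 to 48633572, is that of a record with another ID, matched by symbol. That span also holds HOXB8 and HOXB9, so it does not place HOXB7 between its neighbours.

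The HOXC genes took far fewer counts than the HOXB genes, and all 7 that are described were highest at 48 h except HOXC4. HOXC9 (ENSG00000180806, chromosome 12, 53994895 to 54003337, plus strand), the most abundant, measured 8.65 and 12.9 CPM in the parental libraries, 12.8, 9.89, 13.2 and 8.85 in the clones and 18.7 at 48 h. HOXC6 measured 5.13 and 6.66 CPM in the parental libraries, 3.23, 4.64, 5.23 and 3.78 in the clones and 9.85 at 48 h. HOXC8 measured 2.67 and 3.25 CPM, then 3.09, 4.69, 2.72 and 3.73 in the clones and 5.71 at 48 h. In these genes of the middle of the cluster the clones overlapped the parental libraries.

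HOXC12 (ENSG00000123407, 53954834 to 53958956), a posterior gene of the cluster, measured 1.55 and 2.50 CPM in the parental libraries, 2.15, 2.52, 0.462 and 6.12 in the clones and 14.9 at 48 h. HOXC13 (ENSG00000123364, 53938765 to 53946544), the most posterior HOXC gene and a regulator of hair keratins, measured 0.481 and 0.999 CPM in the parental libraries, 0.762, 0.858, 0.154 and 0.945 in the clones and 2.89 at 48 h. In this pair ATC3 was the lowest library and the 48 h library the highest. HOXC4 measured 2.56 and 2.00 CPM in the parental libraries, 0.987, 2.88, 3.54 and 1.64 in the clones and 2.76 at 48 h. HOXC5 measured 0.801 and 0.916 CPM, then 0.404, 0.706, 1.13 and 0.995 in the clones and 1.58 at 48 h, on 9 to 24 counts.

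**Figure D1:**
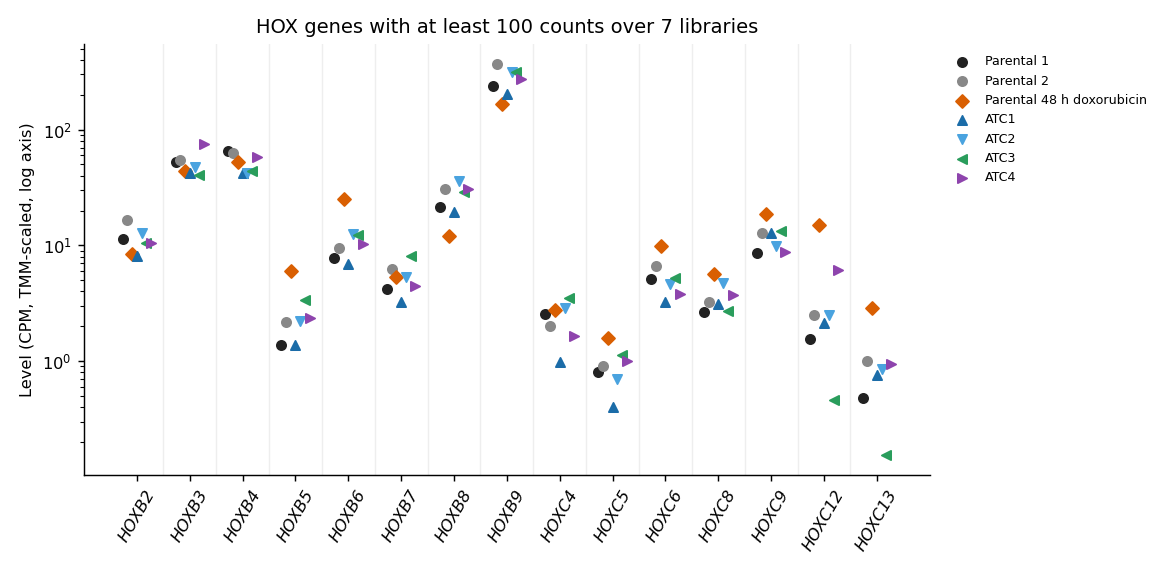
Level of the 15 HOX genes with at least 100 counts, in CPM scaled by TMM on a log axis, with 1 point for each of the 7 libraries. HOXB9 sits at 166 to 372 CPM, far above the others, and the 48 h points of HOXB5, HOXB6, HOXC12 and HOXC13 lie above every other library.

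Per kilobase of exon the order over the mean of the 7 libraries was HOXB9 (104 CPM per kb), HOXB4 (13.9), HOXB8 (12.5), HOXC9 (7.23), HOXB3 (6.83), HOXB2 (4.78) and HOXB6 (4.60). HOXB4 and HOXB8 exchanged places between libraries, HOXB8 being higher per kb in ATC2 (17.4 against 11.2), whereas HOXB9 was first in all 7. The other 21 members had at most 34 counts in any library. These were all 8 HOXA and 9 HOXD genes, HOXB1, HOXB13, HOXC10 and HOXC11. Members with at least 1 count numbered 24 in Parental 1, 21 in Parental 2, 24 to 29 in the clones and 32 in the 48 h library, which also had the most genes of any kind with a count (28172, against 21934 in Parental 2).

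Some members share exon bases, and no source used here says how reads over such bases were assigned. HOXB6 shares 433 exon bases with HOXB3 on its own strand and 425 with the antisense transcript HOXB-AS3, and HOXC4 shares 484 with HOXC6. HOXD4 shares 80.5% of its exon bases with a longer coding transcript, and HOXC5 59.9% with a noncoding one, so the values of both are uncertain. HOXB8, HOXB9, HOXC8 and HOXC12 share none in GENCODE 29. For HOXB7 none was found either, but only for the record matched by symbol.

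The first comparison asked whether the tolerant clones differ from parental cells, and in HOX genes no member passed the test. In the 3 most abundant genes the clones averaged 276 ± 50.7 CPM (SD, n = 4) for HOXB9 against 239 and 372 in the parental libraries, 46.5 ± 7.70 for HOXB4 against 65.0 and 62.3, and 51.4 ± 16.0 for HOXB3 against 52.4 and 54.4. The summed HOXB level was 431 ± 68.4 CPM in the clones, between Parental 1 (402) and Parental 2 (554). The summed HOXC level was 26.3 ± 1.65 CPM, also between the parental values of 21.9 and 29.6.

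Clones and Parental 1 were compared gene by gene with edgeR (quasi-likelihood test). After Benjamini-Hochberg adjustment at 0.05 over 18300 genes, 0 of the 18 HOX members tested were called in either direction. The background was 0% for higher and 0% for lower genes, since no gene passed in that fit. DESeq2 gave no adjusted p for HOXC5, HOXC10, HOXC11, HOXC13 and HOXD4, so these could not be called there. Among the other members the count was also 0 in DESeq2, which called 2.54% of all genes higher and 0.557% lower. It was 0 in the other 9 alternative fits, of which 3 called any gene: those with no filter on low counts (0.0319% of genes higher, 0.0232% lower), with both parental libraries as replicates, although they come from 1 sample (1.48% and 0.579%) and without ATC4 (0.274% and 0.196%). At an unadjusted p under 0.05 it was again 0 of 18, beside 7.5% of all genes higher and 4.28% lower. The other 18 members had too few counts to be tested. The median log2 fold change was 0.40 over the 18 members and 0.11 over all genes tested.

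Among single genes, HOXB4 had the lowest log2 fold change of the HOXB genes, -0.48 ± 0.29 (SE worked back from the test statistic), lower in 4 of 4 clones, with an adjusted p of 0.524 in edgeR and 0.251 to 0.729 over the alternative fits. HOXB9 measured 0.21 ± 0.34 (adjusted p = 0.814 in edgeR), higher than Parental 1 in 3 of 4 clones but below Parental 2 in all 4, and with Parental 2 as the control its log2 fold change was -0.46. HOXB8 measured 0.43 ± 0.40 (adjusted p = 0.677 in edgeR) against Parental 1 and -0.13 with Parental 2. HOXB5 (0.75 ± 0.68), HOXB6 (0.44 ± 0.49) and HOXC9 (0.38 ± 0.44) had adjusted p of 0.666, 0.737 and 0.744 in edgeR. The errors are of the size of the differences, and a p that misses the threshold does not show that the levels were equal.

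No member was at least 2-fold higher than Parental 1 in all 4 clones (0 of 16 with at least 20 counts, background 6.71%), and none at least 2-fold lower (0 of 16, background 1.05%). All 4 clones lay above both parental libraries in 2 of 17 members, HOXC11 and HOXD4 (background 17.7%), and below both in 2 of 17, HOXB4 and HOXD8 (background 17.1%). These shares are below the background. HOXD4 had 6, 17, 6 and 34 counts in ATC1 to ATC4 against 2 and 0 in the parental libraries, and its log2 fold change was 2.80 ± 1.49 (adjusted p = 0.479 in edgeR). HOXC11 had 9, 4, 4 and 24 counts in the clones against 2 and 1. In both the highest value was that of ATC4. HOXD8 had 1, 1, 2 and 1 counts in the clones and 2 in Parental 1, but 20 in Parental 2 and 13 at 48 h, so its place depends on which parental library is used.

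Of the 15 genes with at least 100 counts, the clones differed most from each other in HOXC12 and HOXC13, at the posterior side of HOXC. The log2 ratio to Parental 1 ranged over 3.47 log2 units between clones in HOXC12, from -1.56 in ATC3 to 1.91 in ATC4, and over 2.04 in HOXC13, from -1.20 in ATC3 to 0.85 in ATC4. In counts, HOXC12 had 48, 50, 9 and 123 in ATC1 to ATC4 against 29 in Parental 1 and 30 in Parental 2. HOXC13 had 17, 17, 3 and 19 in the clones against 9 and 12, so its range rests on few counts. The same range was 0.61 in HOXB9 and 0.46 in HOXB4. Past 2-fold in a single clone were HOXC11 (higher) and HOXC4 (lower) in ATC1, HOXD4 (higher) in ATC2, HOXB5 (higher) and HOXC12 (lower) in ATC3, and HOXC11, HOXC12 and HOXD4 (all higher) in ATC4. That is 3 of 16 members higher in ATC4, where 15% of all genes were, and 1 of 16 in each of ATC1, ATC2 and ATC3, where 17.1%, 20% and 16% of all genes were. Lower were 1, 0, 1 and 0 of 16 members in ATC1 to ATC4, beside 6.09%, 10.7%, 8.95% and 5.79% of all genes. HOTAIR, a noncoding antisense gene between HOXC11 and HOXC12, had 10 counts in ATC4 and 0 to 3 in the other clones.

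**Figure D2:**
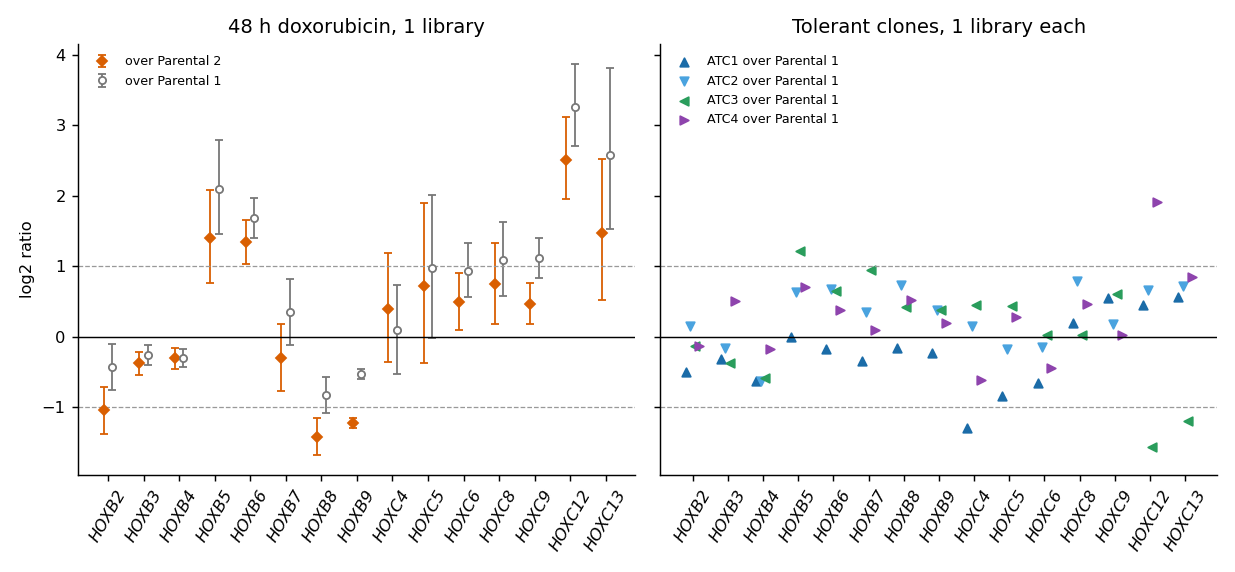
Log2 ratio of the 15 HOX genes, on the left for the 48 h library over Parental 2 and over Parental 1 with 95% intervals from the counts (counting error only), on the right for each clone over Parental 1. The dashed lines mark 2-fold. HOXB2, HOXB8 and HOXB9 lie below 0 at 48 h over either library, HOXB5, HOXB6, HOXC12 and HOXC13 past 2-fold above, and in the clones HOXC12 spreads from -1.56 to 1.91.

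The second comparison set parental cells after 48 h of drug against untreated ones. Some HOX genes differed from Parental 2 in each direction. The counting interval lay above 1 in 7 of 16 members compared, beside 31.5% of all genes compared. It lay below 1 in 5 of 16, beside 42.2%. Whether HOX genes differed more often than other genes was not tested. HOXB9, HOXB8 and HOXB2 were lower, HOXB5 and HOXB6, adjacent genes of the same cluster, were higher, and so were HOXC12 and HOXC13 at the posterior side of HOXC. With 1 library on each side there is no replicate check and no test, and the intervals given cover counting error only. In bulk RNA, fewer cells of a kind and less RNA per cell cannot be told apart.

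At least 2-fold higher than Parental 2 were 4 of the 16 members with 20 counts (background 14%), and at least 2-fold lower another 4 of 16 (background 11.6%). HOXB9 had 2535 counts at 48 h and 4469 in Parental 2, 2.34-fold lower after TMM scaling of the pair (95% interval 2.22 to 2.45). HOXB8 had 184 and 370 counts, 2.67-fold lower (2.23 to 3.20). HOXB2 had 129 and 200 counts, 2.05-fold lower (1.64 to 2.58). The fourth, HOXD8, had 13 and 20 counts, with an interval that reaches 1 (0.490-fold, 0.224 to 1.04). HOXB3 (0.771-fold, 0.691 to 0.860) and HOXB4 (0.811-fold, 0.733 to 0.897) were lower by less. Among the 9 members where the higher library had 100 counts or more, 2 were 2-fold higher (background 7.8%) and 3 lower (background 12.1%).

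HOXB6 had 380 counts at 48 h and 113 in Parental 2, 2.54-fold higher (2.05 to 3.16). HOXB5 had 91 and 26 counts, 2.64-fold higher (1.69 to 4.26). HOXB-AS3, the antisense transcript over both genes, had 72 and 36 counts, 1.51-fold (0.998 to 2.32), an interval that reaches 1. Over Parental 1 it was 2.77-fold (1.80 to 4.34). HOXB7, next to HOXB6, was 0.815-fold (0.588 to 1.13).

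HOXC12 had 227 counts at 48 h and 30 in Parental 2, 5.71-fold higher (3.89 to 8.66), the largest ratio among the members with 20 counts. HOXC13 had 44 and 12 counts, 2.77-fold higher (1.44 to 5.75). HOXC8 was 1.68-fold (1.14 to 2.52), HOXC6 1.41-fold (1.07 to 1.88) and HOXC9 1.39-fold higher (1.14 to 1.70). The intervals of HOXC4 (1.32-fold, 0.781 to 2.28) and HOXC5 (1.65-fold, 0.776 to 3.72) reached 1. Summed over the cluster, HOXC was 57.0 CPM at 48 h and 29.6 in Parental 2, 1.92-fold higher (1.70 to 2.18), whereas HOXB was 321 and 554 CPM, 0.579-fold (0.557 to 0.600).

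The 2 parental libraries bear on these values, because HOXB9 was itself 1.56-fold higher in Parental 2 than in Parental 1 (1.50 to 1.63), HOXB2 1.46-fold and HOXB8 1.44-fold, while HOXB4 was 0.958-fold. Past 2-fold between these libraries were 1 of 14 members with Parental 2 higher, HOXD8 (background 5.79%), and 0 of 14 with it lower (background 6.21%). Against Parental 1, 0 of 15 members were 2-fold lower at 48 h (background 10.8%): HOXB9 was 0.698-fold (0.664 to 0.733), HOXB8 0.566-fold (0.472 to 0.675) and HOXB2 0.745-fold (0.594 to 0.931). Against Parental 1, 6 of 15 were 2-fold higher (background 15.6%), HOXB5 (4.30-fold), HOXB6 (3.22-fold), HOXC8 (2.14-fold), HOXC9 (2.16-fold), HOXC12 (9.63-fold) and HOXC13 (6.01-fold). Of the 15 genes with at least 100 counts, 12 had an interval on the same side of 1 over either library. It lay above 1 for HOXB5, HOXB6, HOXC6, HOXC8, HOXC9, HOXC12 and HOXC13 and below 1 for HOXB2, HOXB3, HOXB4, HOXB8 and HOXB9. Both ratios use the same 48 h library, so they are not independent. The share of all genes on the same side over both libraries was not counted. For scale, the interval over Parental 2 alone lay above 1 in 31.5% and below 1 in 42.2% of all genes with 20 counts. Scaling by library totals moves the median over all genes from -0.10 to 0.14 (log2), and the intervals of HOXB3 and HOXB4 then reached 1 over Parental 2 and those of HOXB2, HOXB3 and HOXB4 over Parental 1.

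The make-up of the HOX messages accordingly differed between the 48 h library and the rest. HOXC took 15.0% of the HOX counts at 48 h (14.1 to 15.9) against 5.06% in Parental 2 (4.56 to 5.60) and 5.17% in Parental 1, and the clones lay at 5.36% to 6.80%. All 4 clones were thus above both parental libraries. The counting interval of the highest clone, ATC1 (6.25 to 7.38), lay apart from both parental ones. HOXB9 took 43.8% at 48 h (42.5 to 45.0) against 63.5% in Parental 2 and 56.2% in Parental 1, with the clones at 55.1% to 64.2%. These shares need no scaling between libraries. All HOX genes together measured 380 CPM at 48 h, 586 in Parental 2, 425 in Parental 1 and 353 to 497 in the clones, so by total level ATC1 was below the 48 h library.

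**Figure D3:**
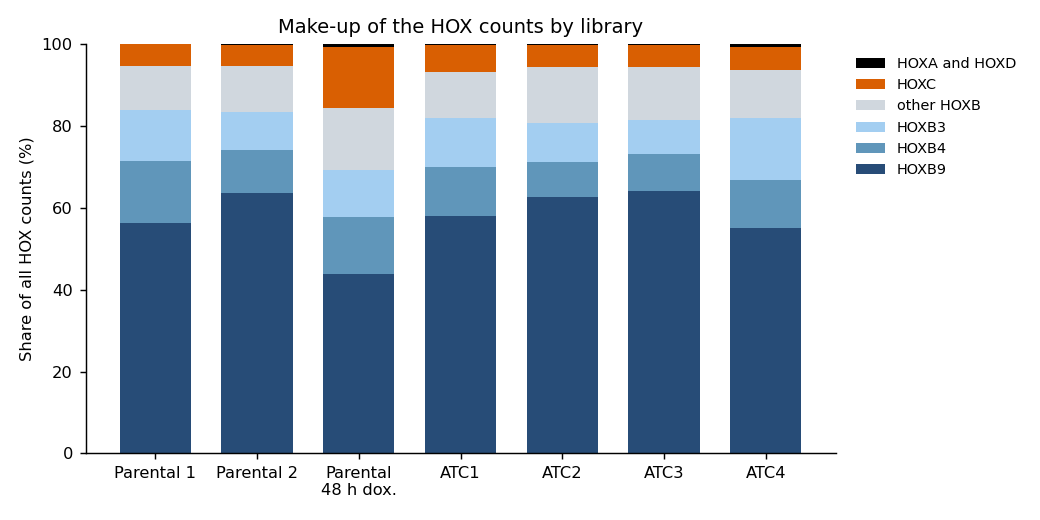
Share of all HOX counts, in percent, taken by HOXB9, HOXB4, HOXB3, the other HOXB genes, HOXC, and HOXA with HOXD, in each of the 7 libraries. HOXC takes 5.17% and 5.06% in Parental 1 and Parental 2, and 5.36% to 6.80% in the clones. At 48 h HOXC takes 15.0% and HOXB9 43.8%.

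Of the partners of HOX proteins, 3 of the 7 TALE cofactors with at least 20 counts had more message in every clone than in either parental library (background 17.7%). In the other direction, MEIS2 and PBX2 had less message in every clone than in either parental library (background 17.1%). MEIS1, which marks HOX-driven leukaemias, had 153 and 157 counts in the parental libraries (8.17 and 13.1 CPM), 446, 536, 524 and 407 in the clones (23.5 ± 3.95 CPM, SD, n = 4) and 190 at 48 h (12.5 CPM). MEIS3 measured 0.427 and 0.916 CPM, then 23.8, 20.7, 20.3 and 8.01 in the clones and 6.37 at 48 h. PBX4 measured 1.71 and 1.33 CPM in the parental libraries, then 5.02, 2.12, 2.77 and 2.04 in the clones (log2 fold change 0.81 ± 0.72, adjusted p = 0.660 in edgeR) and 1.31 at 48 h. In PBX4 the gap was small, with 41 counts in ATC4 against 32 in Parental 1.

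Against Parental 1 the log2 fold change was 5.40 ± 0.90 for MEIS3 and 1.53 ± 0.40 for MEIS1, higher in 4 of 4 clones each. Neither passed in edgeR (adjusted p = 0.210 and 0.330), so 0 of the 7 cofactors tested were called and 2 of 7 had an unadjusted p under 0.05, both higher (background 7.5%). In DESeq2, which called 2.54% of all genes higher, both passed (adjusted p = 1.86e-08 and 0.00741). In edgeR with both parental libraries MEIS3 passed (adjusted p = 0.0182) and MEIS1 did not (0.0921), but that fit counts 2 libraries of 1 parental sample as replicates. MEIS3 also passed in edgeR without ATC4, and in no other alternative fit. Over the 10 alternative fits the adjusted p ran from 1.86e-08 to 0.414 for MEIS3 and 0.00741 to 0.538 for MEIS1. At least 2-fold higher in all 4 clones were 2 of 7 cofactors, where 6.71% of all genes were.

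At 48 h MEIS3 was 6.65-fold (3.56 to 13.8) and PBX3 2.68-fold (1.61 to 4.65) the level in Parental 2, and MEIS2 0.455-fold (0.395 to 0.524). MEIS1 was 0.913-fold (0.735 to 1.14) over Parental 2 and 1.53-fold (1.23 to 1.90) over Parental 1. PBX2, another partner of HOX proteins, measured 181 and 164 CPM in the parental libraries, 103 to 159 in the clones (log2 fold change -0.36 ± 0.32, adjusted p = 0.659 in edgeR) and 139 at 48 h. PBX3 in the clones had a log2 fold change of 0.38 ± 0.74 (adjusted p = 0.856 in edgeR), and MEIS2 -0.55 ± 0.29 (adjusted p = 0.479 in edgeR), lower in 4 of 4 clones.

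**Figure D4:**
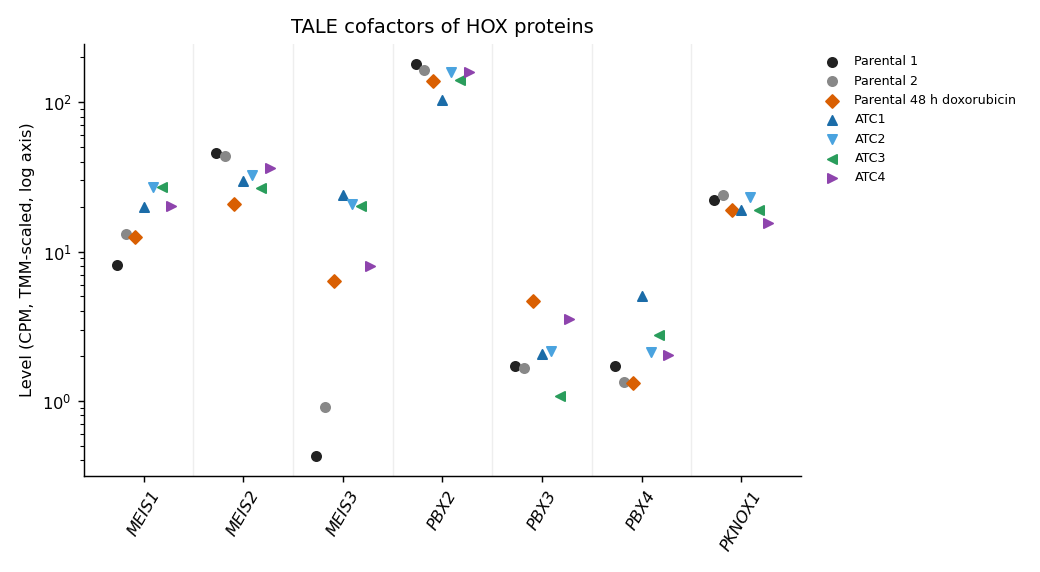
Level of 7 TALE cofactors in CPM scaled by TMM, on a log axis, with 1 point for each of the 7 libraries. MEIS1, MEIS3 and PBX4 are higher in all 4 clones than in both parental libraries, and MEIS2 and PBX2 are lower. The 48 h points of MEIS3 and PBX3 are above both parental points.

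The regulators that keep HOX genes on or off did not pass the test in the clones. Of 17 MLL and elongation factors 0 were called in edgeR, and at an unadjusted p under 0.05 the histone demethylase KDM6B was higher (log2 fold change 1.60 ± 0.61, adjusted p = 0.406) and the MLL-complex subunit RBBP5 lower (-0.81 ± 0.31, adjusted p = 0.406), 1 of 17 each way (background 7.5% and 4.28%). KDM6B differed between the parental libraries, 669 counts in the deeper Parental 1 and 1167 in Parental 2, and its log2 fold change ran from 0.12 to 1.81 over the fits. WDR5, another subunit of MLL complexes, measured -0.75 ± 0.32 (adjusted p = 0.427 in edgeR). KMT2A itself measured -0.21 ± 0.46 (adjusted p = 0.872) and its partner MEN1 -0.66 ± 0.29 (adjusted p = 0.431). MLLT3, a subunit of the elongation complexes, split the clones, with 631, 1, 66 and 630 counts in ATC1 to ATC4 against 1 and 2 in the parental libraries (adjusted p = 0.437 in edgeR). At 48 h 0 of 16 were 2-fold higher than Parental 2 (background 14%) and 4 of 16 lower (background 11.6%), among them MLLT10 (0.230-fold, 0.208 to 0.254) and KDM6A (0.374-fold, 0.335 to 0.417), and KMT2A was 0.664-fold (0.635 to 0.695). KDM6B, also among the 4, was 0.493-fold over Parental 2 but 1.40-fold (1.26 to 1.56) over Parental 1.

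Of 26 Polycomb genes 0 were called in edgeR, with a median log2 fold change of -0.35 against 0.11 over all genes. Medians below that of all genes, though less low, were also those of the MLL and elongation factors (-0.29), the erythroleukaemia markers (-0.29) and the upstream regulators (-0.14). Above it were the TALE cofactors (0.38) and the neighbours and noncoding transcripts (0.36). The core subunits of the H3K27 methyltransferase were lower in 4 of 4 clones each: EED (-1.08 ± 0.35, adjusted p = 0.380), SUZ12 (-0.90 ± 0.38, adjusted p = 0.423) and EZH2 (-0.56 ± 0.29, adjusted p = 0.478). RBBP4, RBBP7, JARID2, MTF2, PHF19, AEBP2, RNF2, BMI1, PCGF6, CBX2 and CBX6 of this list were also lower in 4 of 4. So were MEN1, PSIP1, WDR5, RBBP5, MLLT1, MLLT10 and KAT6A of the MLL and elongation factors. The remaining members of both lists were higher than Parental 1 in at least 1 clone. The share of all genes lower than Parental 1 in 4 of 4 clones was not counted. EED and SUZ12 were the 2 of 26 members with an unadjusted p under 0.05, both lower (background 4.28%). BMI1, of the other Polycomb complex, measured -0.60 ± 0.27 (adjusted p = 0.432 in edgeR). EED, SUZ12, EZH2 and BMI1 each kept a negative log2 fold change in the 10 alternative fits. The smallest p among higher members were those of CBX7 (0.74 ± 0.58, adjusted p = 0.610) and PCGF5 (0.31 ± 0.28, adjusted p = 0.662). At 48 h EZH1, the second H3K27 methyltransferase, was 2.24-fold higher (2.03 to 2.48), the 1 member of 26 past 2-fold upward (background 14%). Lower by 2-fold were 2 of 26 (background 11.6%), AEBP2 (0.367-fold, 0.305 to 0.440) and PHF19 (0.496-fold, 0.470 to 0.522). EZH2 was 0.591-fold (0.562 to 0.621). Over Parental 1, EZH1 was 1.85-fold and PHF19 0.355-fold.

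Of the upstream regulators 8 could be tested and 0 were called in edgeR. The insulator protein gene CTCF measured -0.62 ± 0.29 (adjusted p = 0.446) and CYP26B1, which breaks down retinoic acid, 2.24 ± 2.05 (adjusted p = 0.669). CYP26B1 had only 13, 7, 0 and 3 counts in ATC1 to ATC4 against 1 in Parental 1. The retinoic acid receptor gene RARG was lower in 4 of 4 clones (-1.43 ± 0.57, adjusted p = 0.408). It was the 1 of 8 with an unadjusted p under 0.05 in edgeR (background 4.28% for lower genes). At 48 h RARG was 2.04-fold (1.52 to 2.78) over Parental 2 but 1.00-fold over Parental 1. RARB, another retinoic acid receptor, was 2.73-fold (1.45 to 5.50) at 48 h, on 47 counts against 13, and its log2 fold change in the clones was 1.29 ± 1.19 (adjusted p = 0.671 in edgeR).

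Among 14 testable neighbours and noncoding transcripts of the clusters 0 were called in edgeR, and 2 of 14 had an unadjusted p under 0.05, both higher (background 7.5%): CALCOCO1 (1.86 ± 0.78, adjusted p = 0.421), beside HOXC, and SKAP2 (0.86 ± 0.31, adjusted p = 0.401), beside HOXA. HIBADH, also beside HOXA, measured -0.75 ± 0.35 (adjusted p = 0.444) and ATP5MC3, farther out on the HOXD side, -0.64 ± 0.36 (adjusted p = 0.505). At 48 h CALCOCO1 was 2.98-fold (2.67 to 3.33), HOXC-AS2 2.06-fold (1.00 to 4.55) and MTX2, beside HOXD, 0.476-fold (0.438 to 0.518) the level in Parental 2. Also beside HOXC, CBX5 was 1.10-fold (1.05 to 1.14) over Parental 2 and 1.52-fold over Parental 1, and SMUG1 1.49-fold (1.32 to 1.68) and 1.39-fold.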

How the data were processed

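RNA of 6 samples of K562 cells was sequenced in 7 libraries, prepared with Illumina's TruSeq stranded mRNA kit per the labels' protocols. Values in the deposited tables are read counts of genes plus 1, the 1 having been added by the authors. The added 1 was subtracted and a missing pair was read as 0. The log2 fold changes in the deposited tables are the authors' and were not used. The aligner, the counter and its use of strand were not given in the sources used here. Per the submitters' processing notes GRCh38 was used. The tables' own positions belong to another build, so positions and exon lengths were taken from GENCODE 29 by Ensembl ID. HOXB7, whose ID differs there, was matched by symbol.

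The 4 clones were compared with Parental 1 by edgeR 4.0.16 (R 4.3.3; quasi-likelihood, TMM scaling, filterByExpr, Benjamini-Hochberg adjustment over 18300 genes, 3 residual degrees of freedom, common biological coefficient of variation 0.429), which assumes that the lone parental library varies as the clones do. The SE was worked back from the test as the size of the log2 fold change over the root of F, so the model does not estimate it. For ratios per clone the prior count was 2. Between the 48 h library and Parental 2 no test was made. Their ratios carry exact 95% intervals from the counts and are counted where the higher library has 20 counts or more, with a floor of 3 counts against 0. Levels across the tables were scaled together over the genes in both, although the tables were deposited separately. Total counts per library were 20895918 (Parental 1), 21361758, 18420238, 21252948 and 19169282 (ATC1 to ATC4), 12537146 (Parental 2) and 14146994 (48 h).

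HOX members with at least 100 counts over the 7 libraries are named with all values. From the other lists the 2 members with the smallest p each way, MEIS1, PBX3, KMT2A, MEN1, EZH2, EED, SUZ12 and BMI1, and up to 2 members each way past 2-fold at 48 h are named. HOXC11, HOXD4, HOXD8, HOTAIR, HOXB-AS3, PBX4, SMUG1 and CBX5 were chosen after their values were seen. The members and all lists were chosen with earlier results of these data known. A few listed genes are not reported here and are left out of the lists' counts. Alternatives were DESeq2 1.42.0, RLE scaling, library totals, no filter on low counts, the other or both parental libraries, each clone left out, a prior count of 0.5, a minimum of 100 counts and each cluster without its most abundant member. The tests were checked on simulated counts with far larger changes than those of the HOX genes with at least 100 counts. This check therefore does not show what the tests can find at such small changes.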

Additional observations from a re-analysis of the deposited data

Results flagged for a closer look

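HOXB4 in ATC4 stood apart from the other clones. It measured 58.0 CPM there and 42.2, 42.0 and 43.7 CPM in ATC1 to ATC3, and the gap took 0.898 of the range of the 4 clones, above Dixon's 95% limit for 4 values. ATC4 was the clone nearest to the parental libraries (65.0 and 62.3 CPM). Of the 15 genes examined in this way 1 passed, and chance marks about 1 gene in 20.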

How the results depend on the processing

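No paired analysis was possible because the labels link no clone to a control of its own, and the parental and 48 h groups have 1 sample each. The count of HOX genes called in the clones was 0 in all 10 alternative fits. The count 2-fold higher in all 4 clones became 1 (HOXD4) with a prior count of 0.5, beside 1250 of 15916 genes. With Parental 2 it was also 1 (HOXD4), beside 1346 of 15857 genes, and the count lower became 1 (HOXD8), beside 314 of 15857. At 48 h the count 2-fold higher became 2 with a minimum of 100 counts (background 7.8%). The count lower at 48 h became 1 (HOXB8) with library totals, beside 992 of 13865 genes, and 0 with Parental 1 (background 10.8%). The log2 ratio of summed HOXB at 48 h, -0.79, was -0.62 with library totals and -0.24 without HOXB9. For summed HOXC it was 0.94, and 1.19 without HOXC9. In the clones the mean log2 ratio of summed HOXC, 0.26, was 0.45 with library totals and 0.16 without HOXC9. Of 148 alternative values of the 15 named genes, 129 kept their direction and 19, in 9 genes, turned it, none past the threshold on either side. With Parental 2 as control the log2 fold change became -0.26 (HOXB7), -0.13 (HOXB8), -0.46 (HOXB9), 0.15 (HOXC4), -0.21 (HOXC5), -0.23 (HOXC9) and -0.58 (HOXC13). With both libraries it was -0.16 (HOXB9), -0.091 (HOXC5) and -0.10 (HOXC13). Library totals gave 0.062 (HOXB2) and 0.17 (HOXB3), and RLE scaling -0.021 (HOXC5). With a clone left out HOXB3 ran from -0.28 (without ATC4) to 0.075 (without ATC3), HOXC4 from -0.47 (without ATC3) to 0.061 (without ATC1) and HOXC5 from -0.18 (without ATC3) to 0.23 (without ATC1). Beyond these constructions the cause was not tested. Depth limits the 21 members with under 100 counts.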
